A study of Homo sapiens with 10 samples.

Results

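A block of 57 protein-coding genes at the end of the short arm of human chromosome 1 (1p) was examined in RNA sequencing data of the neuroblastoma line SH-SY5Y. The genes are the listed symbols between the end of 1p and TARDBP, out of 58174 genes in the expression table. All 57 were found on chromosome 1 of hg38, from 944204 (NOC2L) to 10796650 (CASZ1), and all passed a filter of a mean of at least 1 TPM. TPM is a transcript abundance corrected for gene length and scaled to the same total in each library. The block was chosen by its ratios of N352S to wild-type TPM: its genes were lower in cells with the TDP-43 substitution N352S than in wild-type cells. For the members, values of that pair of groups are therefore a description and carry no test here. Genes that are no members are tested in it below.

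SH-SY5Y is an established human line of noradrenergic neuroblastoma origin. In one experiment 3 libraries came from cells given a control siRNA pool (siControl) and 3 from cells given a pool against TDP-43 (siTDP-43), each at 50 nM for 96 hours. In the other, 2 libraries came from TDP-43 wild-type cells (numbered 79 and 80) and 2 from cells homozygous for mutant TDP-43 N352S (81 and 82), made by genome editing. The labels speak of biological replicates but name no culture or clone. The p-values here therefore rest on the scatter of these libraries, which may be technical, and whether a genotype stands for 1 clone is not given.

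The depth of the libraries is unknown, because TPM keep no read total. Mitochondrially encoded genes took at most 16.2% of TPM in a library. Of 9 noradrenergic markers, 8 were at or above 1 TPM in every library, with tyrosine hydroxylase (TH) the exception. The 5 Schwann cell markers summed to 4.54 to 11.2 TPM over the libraries, and the 6 mesenchymal markers to 529 to 543 TPM in wild-type and 913 to 958 TPM in N352S libraries. Most of the latter sum was vimentin (VIM), at 361 and 362 TPM in wild-type and 668 and 707 TPM in N352S libraries, and its part in the results was not tested.

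Distal 1p, cytogenetic band 1p36, is one of the segments most often deleted in neuroblastoma, and several of its genes have been studied as tumour suppressors, among them CHD5, CAMTA1 and CASZ1. Autosomal genes are normally present as a pair of copies, and the amount of transcript often follows the number of copies. The members do unrelated work: they include signalling proteins, ubiquitin ligases, mitochondrial and peroxisomal proteins, enzymes of NAD metabolism and chromatin factors. In bulk RNA, fewer copies of a gene, fewer cells expressing it and less RNA per cell cannot be told apart, and copy number was not measured here.

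Over the 57 members, the ratio of the N352S mean to the wild-type mean had a median of 0.483, with quartiles of 0.438 and 0.537. A ratio of 0.5 is what transcript levels that follow the loss of 1 of 2 equal copies would give. Ratios lay between 0.4 and 0.6 for 52 members, under 0.4 for 3 and above 0.6 for 2. The same window of 0.4 to 0.6 held 1.83% of tested protein-coding genes outside the region, and the median over all 12748 protein-coding genes with a ratio was 0.975. Both N352S libraries were below both wild-type libraries for 56 of 57 members, against 34.7% of all tested genes; the comparison chose the members, so nothing is read from that difference. Summed over the members, TPM were 3422 and 3376 in wild-type and 1657 and 1686 in N352S libraries, beside 3232 to 3502 in siControl and 3084 to 3191 in siTDP-43 libraries. None of the 57 transcripts disappeared: the lowest N352S value was 0.790 TPM, for SPSB1.

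**Figure D1:**
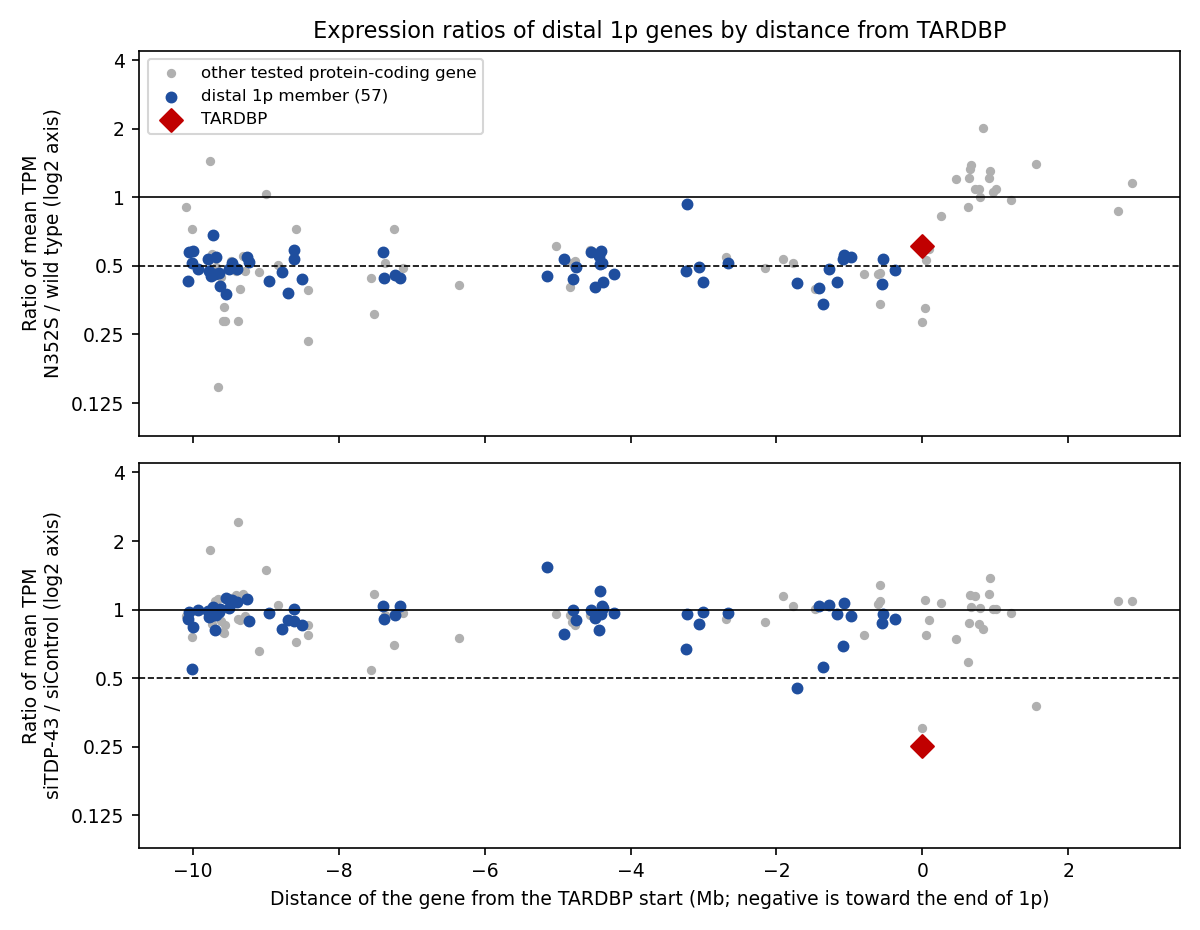
Ratio of mean TPM of each tested protein-coding gene (points; log2 axis) by the distance of its start from that of TARDBP (Mb), for N352S over wild type (top) and siTDP-43 over siControl (bottom); members are blue, TARDBP is the red diamond, and lines mark 1 and 0.5. Members lie near 0.5 from end to end in the top panel (median 0.483), with PER3 at 0.937, and near 1 in the bottom panel (median 0.961).

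Among the members, the ratio varied little with position along the arm. They were chosen by these ratios, so their evenness is not read as a property of the arm. The 45 other tested protein-coding genes of the region ran from 0.1475 to 1.441. The median ratio was 0.483 for the 25 members in the first 3 Mb, 0.448 for 4 between 3 and 5 Mb, 0.501 for 12 between 5 and 7 Mb and 0.484 for 16 beyond 7 Mb. Across the 57 genes, which share their libraries and are not independent replicates, the log2 ratio had a Pearson r of -0.05 with position, 0.02 with the log2 wild-type level and -0.08 with the log2 gene length (Spearman coefficients -0.10, 0.03 and -0.14). By wild-type level, the 18 members with at least 50 TPM ranged from 0.408 to 0.681 (median 0.480), the 29 members with 10 to 50 TPM from 0.376 to 0.584 (median 0.484) and the 10 members under 10 TPM from 0.339 to 0.937 (median 0.461). The log2 ratio had an SD of 0.23 over the members and 0.19 without PER3, where the spread between replicate libraries alone gave 0.12.

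The 3 members nearest the end of the arm had ratios of 0.431 to 0.573, which the choice of members favoured. Tested protein-coding genes beside them that are no members, named after their values were seen, had higher ratios. SAMD11, nearer the end than NOC2L, had 0.906, and ISG15, the next such gene after HES4, had 0.729. NOC2L (944204 to 959309, minus strand), a nucleolar inhibitor of histone acetyltransferase, stood at 113 and 112 TPM in wild-type and 48.0 and 48.7 TPM in N352S libraries, a ratio of 0.431. Its siControl libraries were at 110.2 to 113 TPM and its siTDP-43 libraries at 97.2 to 105 TPM, all above both N352S libraries. KLHL17 (960587 to 965715, plus strand), a kelch protein, was at 36.3 and 33.9 TPM in wild-type and 20.9 and 19.4 TPM in N352S libraries (ratio 0.573), with 31.4 to 34.5 TPM in siControl and 29.6 to 35.3 TPM in siTDP-43 libraries. HES4, a transcriptional repressor of the Hairy/Enhancer of split family, was at 24.3 and 22.6 against 11.01 and 13.2 TPM (ratio 0.516).

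At the inner end, the last 3 members gave ratios of the same order. DFFA, the inhibitor and chaperone of the apoptotic nuclease DFFB, was at 47.1 and 43.4 TPM in wild-type and 19.8 and 17.8 TPM in N352S libraries (ratio 0.415), with 42.7 to 47.7 TPM in siControl and 37.6 to 41.0 TPM in siTDP-43. PEX14, a docking protein for import into peroxisomes, was at 23.3 and 23.7 against 11.2 and 13.8 TPM (ratio 0.533). CASZ1 (10636604 to 10796650, minus strand), a zinc finger transcription factor, was at 7.28 and 8.16 against 4.68 and 2.76 TPM (ratio 0.482), and its N352S libraries differed from each other more than the wild-type ones did.

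Beyond CASZ1 the next tested genes were TARDBP, a gene that overlaps it and its inner neighbours, none of them members. TARDBP was at 196 and 205 TPM in wild-type and 123 and 122 TPM in N352S libraries, a ratio of 0.611. Of the next protein-coding genes with a name, the spermidine synthase SRM had a ratio of 0.328 (127 and 122 against 37.0 and 44.8 TPM), the exosome nuclease EXOSC10 0.533 (69.8 and 67.1 against 38.95 and 33.9 TPM) and the kinase MTOR 0.595 (33.1 and 34.4 against 21.2 and 19.0 TPM). Low ratios thus ran past the boundary that the choice of members drew at TARDBP. DISP3, 467 kb beyond the TARDBP start, had 1.21. Of these genes, TARDBP, SRM, EXOSC10 and MTOR were called lower in N352S cells (limma adjusted p = 1.9e-05, 1.6e-05, 2.6e-05 and 0.00046), against 11.9% of all tested genes. DISP3 and the gene that overlaps TARDBP were not called. Another antisense gene, at the start of EXOSC10 on the other strand (11099675 to 11102100) and chosen after its values were seen, went the other way. It rose from 0.49 and 0.40 TPM in wild-type to 10.6 and 13.6 TPM in N352S libraries (log2 3.17 ± 0.20 SE, limma adjusted p = 1.6e-05). It lay at 0.300 to 0.780 TPM in the 6 siRNA libraries. Whether counting used strand is not given, so reads of EXOSC10 and of the antisense genes that overlap it cannot be told apart there.

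The 6 most abundant members had ratios between 0.4 and 0.6. GNB1, a beta subunit of heterotrimeric G proteins, had 435, 448 and 477 TPM in siControl, 398, 407 and 409 in siTDP-43, 476 and 473 in wild-type and 242 and 252 in N352S libraries. Its ratio of N352S to wild type was 0.519, and the 4 pairings of single libraries gave 0.507 to 0.531. PARK7 encodes DJ-1, a protein that protects against oxidative stress and is mutated in recessive Parkinson disease. Its values were 351.75, 359 and 377 TPM in siControl, 309, 313 and 317 in siTDP-43, 322 and 335 in wild-type and 164 and 161 in N352S libraries (ratio 0.495). For both genes the N352S libraries lay below all 8 others.

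CCNL2, cyclin L2 of the splicing machinery, had the lowest ratio among the 6 most abundant members: 246 and 242 TPM in wild-type and 98.3 and 101 TPM in N352S libraries, or 0.408, with 236 to 252 TPM in siControl and 237 to 258 TPM in siTDP-43. AURKAIP1, a protein of the mitochondrial ribosome, was at 169 and 161 against 71.9 and 82.3 TPM (0.467). RER1, a sorting receptor that returns proteins to the endoplasmic reticulum, was at 115 and 109 against 59.4 and 61.2 TPM (0.538). ACOT7, an acyl-CoA thioesterase abundant in brain, was at 215 and 215 against 105 and 106 TPM (0.492), while its siControl libraries held 146 to 154 TPM. Its N352S level was therefore 0.703 of siControl, and its wild-type level 1.43 times siControl.

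**Figure D2:**
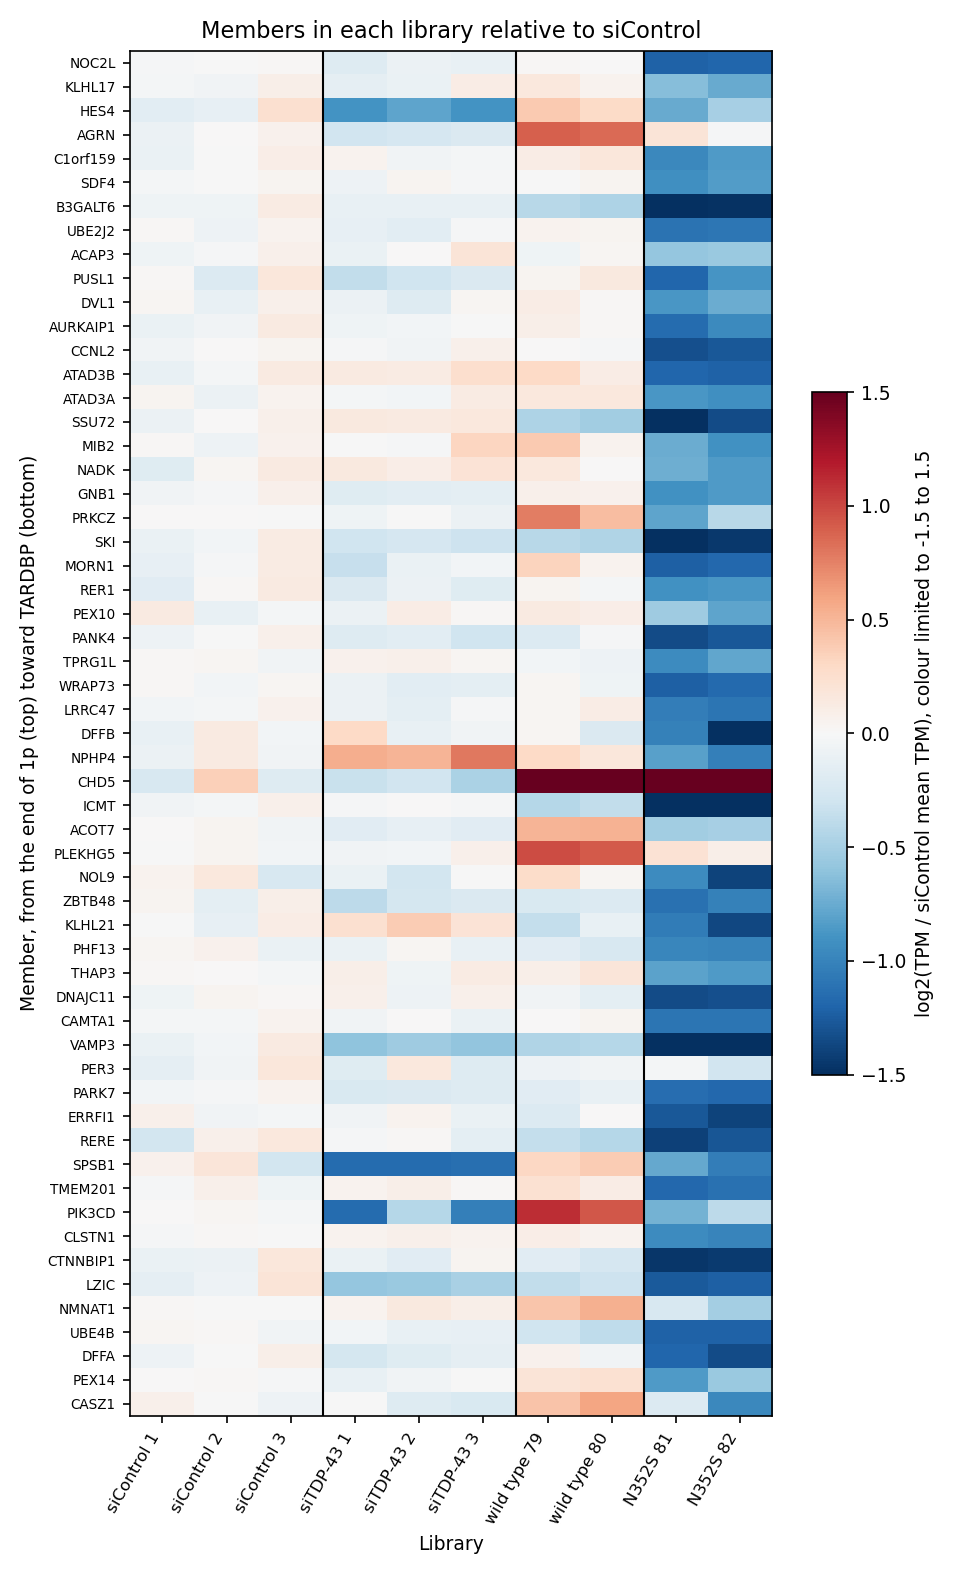
Log2 of TPM over the siControl mean for the 57 members (rows, from the end of 1p at the top toward TARDBP at the bottom) in the 10 libraries (columns). The 2 N352S columns are blue in nearly every row, with PER3, AGRN and PLEKHG5 pale and CHD5 red. The siTDP-43 columns stand out for HES4, VAMP3, SPSB1, PIK3CD, LZIC and NPHP4.

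Among the genes studied as tumour suppressors, CHD5 and CAMTA1 differed in level and in their siRNA reference. CAMTA1, a calmodulin-binding transcription activator and the longest member at 984 kb, was at 107 and 109 TPM in wild-type, 50.0 and 49.9 TPM in N352S, 104 to 111 TPM in siControl and 99.4 to 107 TPM in siTDP-43 libraries (ratio of N352S to wild type 0.461). CHD5, a neuronal chromatin remodeller, was at 4.59 and 4.14 TPM in wild-type and 2.37 and 2.29 TPM in N352S libraries (ratio 0.534), but at 0.650 to 0.980 TPM in siControl and 0.550 to 0.630 TPM in siTDP-43. N352S cells thus held less CHD5 transcript than wild-type cells and 3.04 times as much as siControl cells.

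Some members act in mitochondria or peroxisomes. The inner membrane ATPases ATAD3A and ATAD3B are near-identical neighbours, so their separate values are uncertain. ATAD3A was at 41.3 and 41.5 TPM in wild-type and 20.3 and 19.6 TPM in N352S libraries (0.482), and ATAD3B at 40.4 and 35.2 against 14.3 and 14.1 TPM (0.376). DNAJC11, a mitochondrial J-domain protein, had a ratio of 0.426. PEX10, a ubiquitin ligase of the peroxisome membrane, was at 16.1 and 15.7 against 10.1 and 8.49 TPM (0.584), one of the 4 highest ratios. PEX10 and its partner in peroxisome assembly PEX14 thus differed by less than the spread of their library pairings (0.526 to 0.644 and 0.475 to 0.593).

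NADK, the cytosolic kinase that makes NADP, was at 49.9 and 44.9 TPM in wild-type and 26.9 and 24.7 TPM in N352S libraries (0.545). NMNAT1, the nuclear enzyme of NAD synthesis, was at 5.16 and 5.58 against 3.27 and 2.71 TPM (0.557). The apoptotic nuclease DFFB was at 10.3 and 8.69 against 4.98 and 3.37 TPM (0.440), beside 0.415 for its inhibitor DFFA. Both genes of the nuclease and inhibitor pair were lower by similar factors.

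Signalling and ubiquitin genes followed. In the Wnt pathway, the mediator DVL1 had a ratio of 0.546 and CTNNBIP1, an inhibitor of beta-catenin, 0.425. The TGF-beta repressor SKI had 0.472, the atypical protein kinase PRKCZ 0.431 and the EGF receptor inhibitor ERRFI1 0.425. Ratios were 0.453 for the ubiquitin-conjugating enzyme UBE2J2, 0.544 for the ubiquitin ligase UBE4B and 0.483 for the Notch pathway ligase MIB2. The RNA polymerase phosphatase SSU72 had 0.515, and the methyltransferase of prenylated proteins ICMT 0.439. All 10 genes lay between 0.4 and 0.6, and since members were chosen by these ratios nothing is read from that. PIK3CD (0.339) and ACAP3 (0.681), given below, lay outside this window.

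Other members act in the nucleus or in trafficking. Ratios were 0.405 for the ribosomal RNA processing kinase NOL9, 0.553 for the telomere-binding zinc finger protein ZBTB48, 0.517 for the corepressor RERE and 0.581 for the chromatin reader PHF13. CLSTN1, a calsyntenin that links cargo to kinesin, had 0.485, SDF4, a calcium-binding protein of the Golgi lumen, 0.537, and B3GALT6, a galactosyltransferase of proteoglycan synthesis, 0.473. Of the rest, C1orf159 had 0.484, PUSL1 0.459, PANK4 0.436, TPRG1L 0.576, WRAP73 0.442, LRRC47 0.454, KLHL21 0.510 and THAP3 0.515.

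Few members left the window of 0.4 to 0.6. PIK3CD, the delta catalytic subunit of phosphoinositide 3-kinase, had the lowest ratio: 7.11 and 6.30 TPM in wild-type and 2.03 and 2.52 TPM in N352S libraries (0.339). With a siControl mean of 3.31 TPM, its wild-type level was 2.026 times siControl and its N352S level 0.687 of siControl. ATAD3B (0.376) and MORN1 (10.3 and 8.45 against 3.48 and 3.62 TPM, 0.378) were the others below 0.4, and TMEM201, a protein of the inner nuclear membrane, stood just inside at 0.401 (25.3 and 23.3 against 9.57 and 9.95 TPM). At the other end, ACAP3, which stimulates hydrolysis of GTP by the small GTPase ARF6, was at 67.5 and 72.2 against 47.1 and 48.0 TPM (0.681). AGRN, which encodes agrin, the organiser of the neuromuscular junction, was within the window at 0.582, with 83.7 and 81.0 against 51.4 and 44.5 TPM.

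PER3, a component of the circadian clock, was the single member whose libraries overlapped. It had 7.68, 8.11 and 9.45 TPM in siControl, 7.43, 9.38 and 7.35 in siTDP-43, 7.99 and 8.13 in wild-type and 8.22 and 6.88 in N352S libraries, a ratio of 0.937. The members on either side of it, VAMP3 (0.474) and PARK7 (0.495), were near 0.5.

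**Figure D3:**
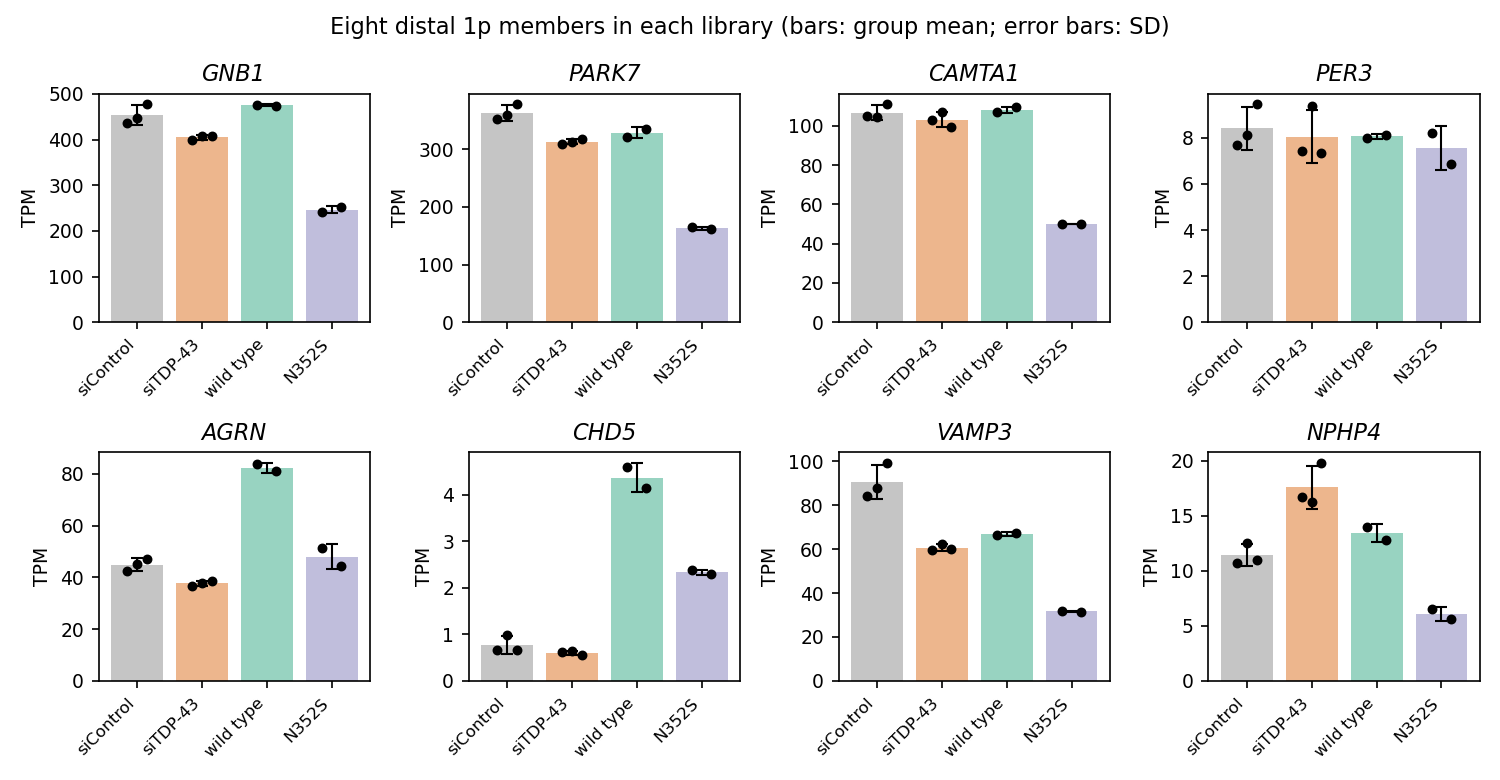
TPM (linear axes from 0) of 8 members; a point is a library, a bar the mean of its group and the whisker 1 SD, with 3 libraries per siRNA group and 2 per genotype. GNB1, PARK7 and CAMTA1 are lowest in the N352S libraries, PER3 overlaps in all groups, AGRN and CHD5 are highest in wild-type libraries, and VAMP3 and NPHP4 differ between the siRNA groups.

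The siRNA libraries, from a separate experiment, served as a reference for the level of each member. Wild-type over siControl ratios had a median of 1.03 (quartiles 0.934 and 1.15), against 0.945 over all tested protein-coding genes, and lay between 0.8 and 1.2 for 39 of 57 members. N352S over siControl ratios had a median of 0.491 (quartiles 0.431 and 0.579), against 0.919 over all tested protein-coding genes. Both N352S libraries were below all 3 siControl libraries for 53 of 57 members, against 41.2% of all tested genes. These ratios share libraries with the values that chose the members, and the experiments differ, so they are given without a test.

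The other 4 members were AGRN, PLEKHG5, CHD5 and PER3. AGRN was at 42.4, 45.2 and 47.1 TPM in siControl libraries, so that its N352S level was 1.07 of siControl and its wild-type level 1.83. PLEKHG5, an exchange factor for small GTPases that is mutated in a motor neuron disease, was at 16.1 to 17.01 TPM in siControl, 16.0 to 17.5 in siTDP-43, 32.6 and 31.3 in wild-type and 19.3 and 17.6 in N352S libraries, or 1.12 and 1.94 of siControl. For AGRN, PLEKHG5 and CHD5 the low N352S to wild-type ratio came with high wild-type levels, as it did for PIK3CD (2.026 of siControl in wild-type cells). Wild-type levels were above 1.2 times siControl for 10 of 57 members and under 0.8 for 8. In the other direction, ICMT (0.757 of siControl in wild-type cells), SSU72 (0.710), SKI (0.739), B3GALT6 (0.738) and VAMP3 (0.739) were lower in both genotypes than in siControl cells, and their N352S to siControl ratios ran from 0.332 to 0.366.

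**Figure D4:**
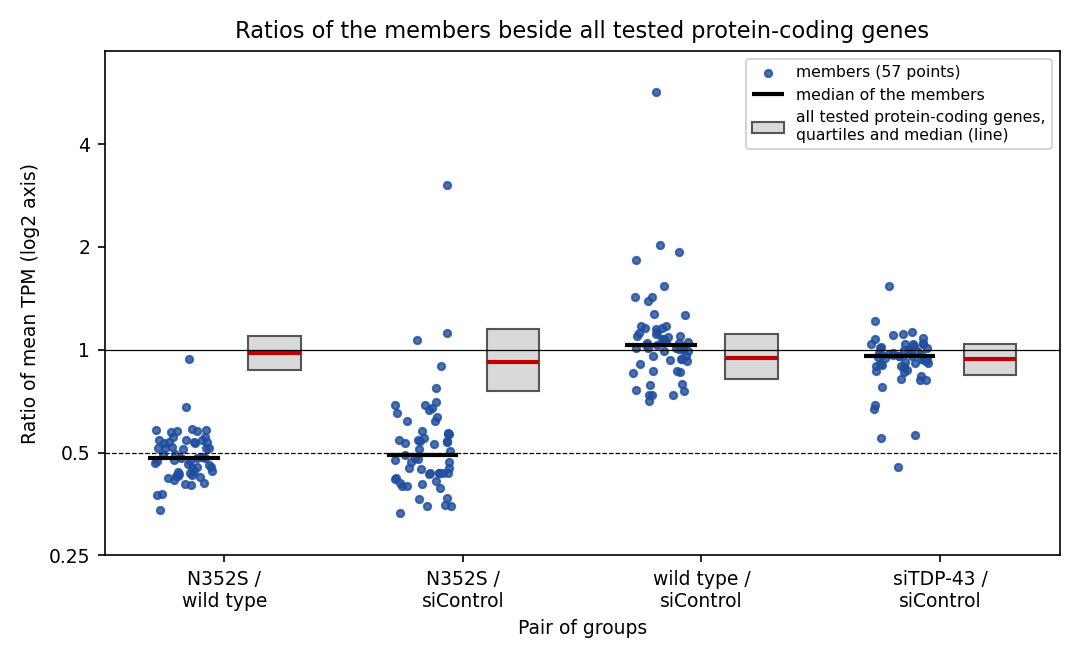
Ratios of mean TPM (log2 axis) for the 57 members (blue points; black line, median) and for all tested protein-coding genes (grey box, quartiles; red line, median) in 4 pairs of groups. Member medians were 0.483, 0.491, 1.03 and 0.961 from left to right, and the points of both ratios with N352S on top centre near 0.5.

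The knockdown compared siTDP-43 with siControl libraries, which were not used to choose the members. TARDBP itself was at 256, 256 and 256 TPM in siControl and 62.3, 63.1 and 67.7 TPM in siTDP-43 libraries, a ratio of 0.252. The ratio of siTDP-43 to siControl had a median of 0.961 over the members and 0.940 over all tested protein-coding genes, and it lay between 0.8 and 1.2 for 49 of 57 members. By limma across all 17118 tested genes with Benjamini-Hochberg adjustment, 14 members (24.6%) were called lower, against 19.8% of all tested genes, and 1 (1.75%) higher, against 6.19%. Every siTDP-43 library lay below every siControl library for 18 members, against 31.7% of all tested genes, and above for 6, against 11.9%. The median log2 change on the log2(TPM + 1) scale was -0.06 for the members and -0.08 for all tested genes. The split depended on scaling: median-of-ratios scaling gave 7 lower and 6 higher members with a median ratio of 1.02, and quantile normalization 6 and 6 with 1.028. It was 9 and 2 without siControl replicate 3, and 8 and 1 without siTDP-43 replicate 1. The main fit did not pair same-numbered siRNA libraries. A fit of the siRNA libraries alone that paired them gave 11 and 1. The shares of all tested genes called under these other settings are not given, so these counts have no background here.

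VAMP3, a vesicle SNARE protein of endosomal recycling, had the smallest adjusted p of the 57 members in the knockdown. It fell from 84.4, 88.1 and 99.3 TPM in siControl to 59.5, 62.4 and 60.1 TPM in siTDP-43 libraries (log2 -0.57 ± 0.06 SE, limma adjusted p = 0.00022). HES4 fell from 16.6, 17.1 and 21.9 to 9.93, 10.8 and 9.93 TPM (log2 -0.79 ± 0.11, limma adjusted p = 0.00095). With same-numbered siRNA libraries paired, the limma adjusted p was 0.0089 for VAMP3 and 0.0134 for HES4. Groups did not overlap for either gene, and both were also near 0.5 of wild type in N352S cells (0.474 and 0.516).

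LZIC, a small protein related to CTNNBIP1, fell from 39.7, 41.6 and 49.9 to 29.2, 29.8 and 31.3 TPM (log2 -0.52 ± 0.08, limma adjusted p = 0.0016). SPSB1, a SOCS box adaptor of ubiquitin ligases, fell from 1.69, 1.83 and 1.34 to 0.730, 0.730 and 0.740 TPM (log2 -0.59 ± 0.12, limma adjusted p = 0.0084). PARK7 fell less, to 0.864 of siControl (log2 -0.21 ± 0.04, limma adjusted p = 0.0027), with every siTDP-43 library below every siControl library. These 5 genes, PIK3CD (0.562 of siControl) and NPHP4 kept their calls in every alternative run that tested them. SPSB1 and PIK3CD did not pass the alternative filter of a mean of at least 5 TPM and had no call there. The remaining 8 called members, ACOT7, SKI, GNB1, AGRN, ZBTB48, NOC2L, WRAP73 and PANK4, had log2 changes of -0.28 to -0.13 and each lost its call in at least 1 alternative. ZBTB48, NOC2L, PANK4 and WRAP73 lost theirs in 7 to 12 of 16, among them the fit that used replicate numbers as a block (adjusted p = 0.0613, 0.0677, 0.0925 and 0.0716).

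NPHP4 was the only member called higher in the knockdown. It encodes a protein of the ciliary transition zone mutated in nephronophthisis, and rose from 10.7, 12.5 and 10.99 TPM in siControl to 16.7, 16.3 and 19.8 TPM in siTDP-43 libraries (log2 0.58 ± 0.10, limma adjusted p = 0.0025). In N352S cells it stood at 6.51 and 5.59 TPM against 14.01 and 12.8 TPM in wild type, a ratio of 0.451, so the sides of 1 on which its ratios fell were opposite in the 2 experiments. The difference between the experiments was not tested, since the members were chosen with one of them.

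Some members start back to back with another member and share the DNA between them. Searching GENCODE 29 for members on opposite strands with starts within 1000 bases gave 5 pairs: SDF4 and B3GALT6, MORN1 and RER1, KLHL21 and PHF13, LZIC and NMNAT1, and DFFA and PEX14. Promoter windows of 3 pairs are shown because a single stretch holds both annotated starts, which lie 21 bases apart for LZIC and NMNAT1, 68 for MORN1 and RER1 and 195 for SDF4 and B3GALT6. The windows are from RefSeq (GRCh38.p14), on the plus strand, 5′ to 3′, with short motifs in capitals on either strand: CCGGAAG (the core bound by ETS factors), GGGCGG (a GC box), CCAAT and the E-box CACGTG.
NMNAT1 and LZIC, chr1:9943225-9943524: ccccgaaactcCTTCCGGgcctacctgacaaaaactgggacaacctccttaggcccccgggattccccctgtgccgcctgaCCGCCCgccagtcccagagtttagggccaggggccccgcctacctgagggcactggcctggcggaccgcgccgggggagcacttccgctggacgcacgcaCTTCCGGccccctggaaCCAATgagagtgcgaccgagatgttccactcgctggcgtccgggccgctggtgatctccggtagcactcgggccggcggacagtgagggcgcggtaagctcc
RER1 and MORN1, chr1:2391591-2391890: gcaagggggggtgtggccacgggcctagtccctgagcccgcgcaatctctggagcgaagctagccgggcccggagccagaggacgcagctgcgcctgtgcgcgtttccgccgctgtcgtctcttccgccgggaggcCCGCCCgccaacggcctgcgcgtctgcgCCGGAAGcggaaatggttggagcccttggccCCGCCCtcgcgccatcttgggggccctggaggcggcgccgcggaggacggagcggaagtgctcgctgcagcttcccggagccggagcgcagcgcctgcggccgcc
B3GALT6 and SDF4, chr1:1231987-1232286: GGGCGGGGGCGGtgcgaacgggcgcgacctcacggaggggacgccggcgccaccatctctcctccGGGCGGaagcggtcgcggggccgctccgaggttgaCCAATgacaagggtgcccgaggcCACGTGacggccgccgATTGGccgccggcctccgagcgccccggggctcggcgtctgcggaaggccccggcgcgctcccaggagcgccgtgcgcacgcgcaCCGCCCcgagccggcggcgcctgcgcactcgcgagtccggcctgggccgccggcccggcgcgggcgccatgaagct
Counted from the first base of each window, the GENCODE starts are at 204 (NMNAT1) and 183 (LZIC), 185 (RER1) and 117 (MORN1), and 240 (B3GALT6) and 45 (SDF4). The NMNAT1 window held 2 ETS cores, a GC box and a CCAAT, the RER1 window an ETS core between GC boxes, and the B3GALT6 window 4 GC boxes (2 of them adjacent at its 5′ end), a CCAAT on each strand and an E-box.

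Of the pairs, LZIC and NMNAT1 had the closest N352S ratios and MORN1 and RER1 the widest apart. LZIC was at 33.8 and 35.1 TPM in wild-type and 18.2 and 18.6 TPM in N352S libraries, a ratio of 0.535, beside 0.557 for NMNAT1. In the knockdown LZIC fell to 0.689 of siControl, while NMNAT1 was at 3.91, 3.85 and 3.84 TPM in siControl and 4.02, 4.29 and 4.11 TPM in siTDP-43 libraries (ratio 1.07, limma adjusted p = 0.54). The partners thus stood together in one experiment and apart in the other, a difference between genes that was not tested. RER1 and MORN1 had N352S ratios of 0.538 and 0.378 and knockdown ratios of 0.895 and 0.898, SDF4 and B3GALT6 0.537 and 0.473 with 0.989 and 0.926, KLHL21 and PHF13 0.510 and 0.581 with 1.21 and 0.961, and DFFA and PEX14 0.415 and 0.533 with 0.874 and 0.961. DFFA and PEX14, and KLHL21 and PHF13, overlap at their starts, so reads of the overlap may be shared.

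**Figure D5:**
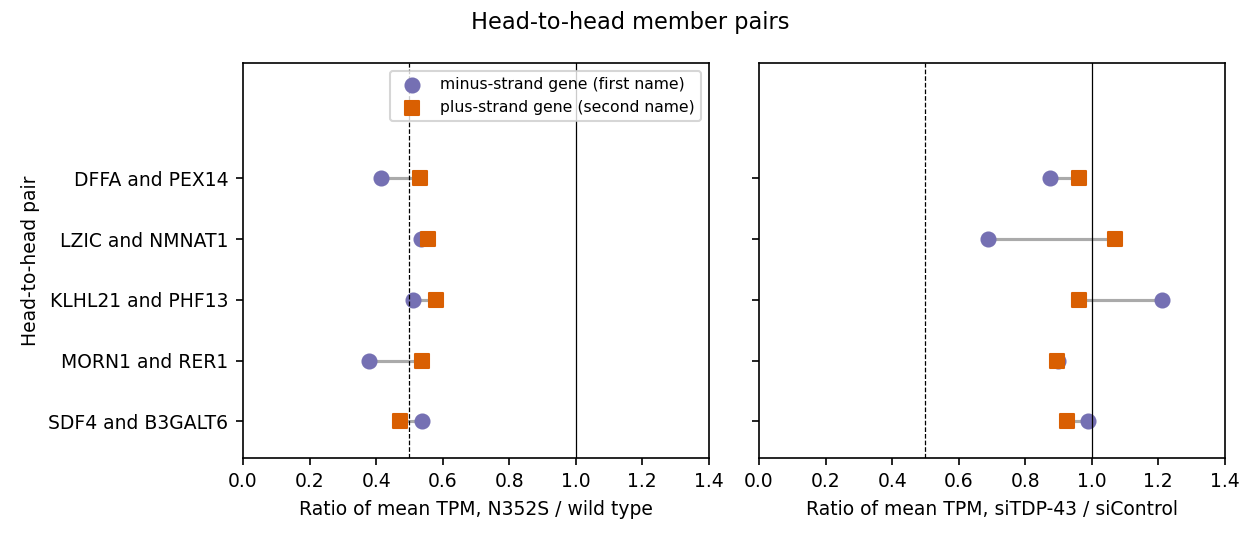
Ratios of mean TPM of the 5 head-to-head pairs (rows), for N352S over wild type (left) and siTDP-43 over siControl (right); circles are the minus-strand and squares the plus-strand genes, and lines mark 0.5 and 1. LZIC and NMNAT1 lie at 0.535 and 0.557 on the left and at 0.689 and 1.07 on the right.

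RefSeq promoter windows matched 47 of 57 members; AGRN, PUSL1, ATAD3B, SKI, DFFB, CHD5, RERE, SPSB1, PEX14 and CASZ1 were not matched. Members' windows had a median GC content of 72.7% and 36 CG dinucleotides, against 65.7% and 27 over 9908 tested protein-coding genes and 58.7% and 14 over all 34961 windows. A GC box occurred in 38 of 47 member windows (80.9%, against 71.1% of tested genes and 45% of all), an ETS core in 16 (34.0%, against 19.5% and 10.3%) and CCAAT in 22 (46.8%, against 36.7% and 34.6%). The TATA box TATAAA was found in 1 window (2.13%, against 5.04% and 11.5%), CACGTG in 5 (10.6%, against 9.97% and 7.27%) and the palindromic core bound by NRF1 in 0 (against 2.32% and 1.24%). Each was searched on both strands, and matches are a description of the letters.

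The pattern extended to genes of the region that are no members. For 45 other tested protein-coding genes between the end of 1p and TARDBP the median ratio of N352S to wild type was 0.488, with 27 between 0.4 and 0.6, 11 lower and 7 higher. For 50 genes of other types with a ratio it was 0.654. The knockdown ratio of the 45 genes had a median of 0.944.

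Close paralogues of members on other parts of the genome were compared to see whether the other copies of a function moved in N352S cells. Of 38 tested paralogues, 6 were called lower (limma, against 11.9% of all tested genes) and 0 higher (against 8.28%), with 8 lower and 2 higher at an unadjusted p under 0.05. Their median log2 change was -0.07, and their median ratio of 0.953 compares with 0.975 over all tested protein-coding genes. The calsyntenin CLSTN2 fell from 11.2 and 10.2 to 3.27 and 2.60 TPM (log2 -1.58 ± 0.12, limma adjusted p = 3.2e-05), beside 0.485 for its relative CLSTN1. SPSB4 fell from 12.5 and 10.8 to 4.89 and 5.51 TPM (log2 -1.02 ± 0.09, limma adjusted p = 0.00012), and the calcium-binding RCN1, related to SDF4, from 86.5 and 80.7 to 43.5 and 44.7 TPM (log2 -0.91 ± 0.10, limma adjusted p = 0.00039). The pantothenate kinase PANK1, related to PANK4, fell from 14.6 and 12.5 to 9.21 and 8.58 TPM (log2 -0.56 ± 0.09, limma adjusted p = 0.0036). Wild-type levels over siControl were 2.12 for CLSTN2 and 2.52 for RCN1, and 0.760 for SPSB4 and 0.701 for PANK1. N352S levels over siControl were 0.581, 1.33, 0.340 and 0.459 in that order. RCN1 alone of these was also called lower in the knockdown (log2 -0.84 ± 0.08, limma adjusted p = 0.00022). A rise was called for none of the 38 with the scaling as deposited, and for 1 under median-of-ratios scaling, under quantile normalization and without N352S replicate 82.

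Genes that work with members, taken from 4 lists, held 5 of 46 genes called lower in N352S cells by limma, against 11.9% of all tested genes, and 7 called higher, against 8.28%. Of 14 other peroxisome assembly genes, 3 rose and 0 fell (0 lower and 3 higher at an unadjusted p under 0.05), among them PEX6 (8.48 and 8.17 to 10.97 and 10.98 TPM; limma adjusted p = 0.013) and PEX16. Of 7 genes of NAD metabolism, QPRT (74.7 and 79.4 to 109 and 102 TPM; limma adjusted p = 0.0068) and NAPRT rose and NAMPT fell. Of 19 Wnt pathway genes, 2 rose, LEF1 (8.38 and 6.82 to 12.7 and 11.5 TPM; limma adjusted p = 0.0045) and FZD7, and 4 fell, CSNK1A1, APC, CSNK1E and TCF7L1. Of 6 Parkinson disease genes other than PARK7 none was called by limma (1 lower and 0 higher at an unadjusted p under 0.05). Without wild-type replicate 79 the 4 lists held 0 lower and 1 higher call, and without any other genotype library 2 or 3 lower and 2 to 4 higher.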

How the data were processed

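RNA sequencing of 10 SH-SY5Y libraries was deposited as 1 table of TPM per gene, made by the authors. STAR, RSEM and hg38 are named in the submitters' processing notes; their versions, the annotation and the strand setting: not given in the sources used here. The depth is unknown, so no counting interval is given. Groups came from the sample labels, and 0 columns were left unused. Members and gene lists were chosen with earlier results of these data known.

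Of 58174 genes, the 17118 whose TPM averaged 1 or more over the libraries were fitted as log2(TPM + 1) over the 4 groups together with limma 3.58.1 (R 4.3.3) with a trended prior and Benjamini-Hochberg adjustment at 0.05. This scale understates changes of low genes. The fit was tested on simulated data. Ratios are of mean TPM without a pseudocount. Positions are from GENCODE 29 (hg38), which held 57836 of the table's identifiers, and promoter windows from RefSeq (GRCh38.p14). Figures used matplotlib 3.10.9.

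Named members were the most abundant, those with the lowest and highest ratios, the outermost and innermost, those with the smallest adjusted p in the knockdown and a set named for function; others are given by ratio. Deviations of same-numbered siRNA libraries from their group means had correlations of 0.336, 0.137 and 0.198, and differently numbered ones -0.267 to 0.091. Deviations from a group mean are tied to one another, so these values do not settle whether the libraries were paired. The main fit did not pair same-numbered libraries, and an alternative fit of the siRNA libraries alone used their numbers as a block. The genotype libraries carry different numbers and were not paired. Alternatives changed the pseudocount, filter, scaling, prior, groups fitted, pairing and libraries. Some genes are not reported here.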

Additional observations from a re-analysis of the deposited data

How the results depend on the processing

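The depth behind TPM is unknown and each genotype has 2 libraries, which limits precision. The median ratio of members, N352S to wild type, was 0.483 and became 0.496 from TPM + 1, 0.495 with median-of-ratios scaling and 0.493 with quantile normalization; leaving out 1 library gave 0.483 to 0.490. For N352S to siControl (0.491) the values were 0.516, 0.521 and 0.525, 0.478 at a mean of at least 5 TPM, and 0.479 to 0.507 without 1 library. For wild type to siControl (1.035) they were 1.071 and 1.064 under the 2 scalings, 1.014 at 5 TPM, 1.048 without mitochondrially encoded genes and 1.005 to 1.055 without 1 library. For siTDP-43 to siControl (0.961) they were 1.02 and 1.028 under the 2 scalings, which is above rather than below 1, 0.989 without mitochondrially encoded genes and 0.950 to 0.970 without 1 library.

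Members called in the knockdown, 14 lower and 1 higher, were 7 and 6 with median-of-ratios scaling, 6 and 6 with quantile normalization, 10 and 3 without mitochondrially encoded genes, and 8 to 14 and 1 to 2 without 1 library. With the replicate block, which pairs same-numbered siRNA libraries, they were 11 and 1. Paralogues called higher in N352S cells, 0, were 1 under either scaling and 0 to 1 without 1 library, and those called lower, 6, were 4 to 6. Pathway partners called lower, 5, were 1 with no filter, 2 and 3 under the scalings, 3 without a trended prior, 0 with only the 2 groups compared and 0 to 3 without 1 library. Those called higher, 7, were 1 with only the 2 groups and 1 to 4 without 1 library. The shares of all tested genes called under these other settings are not given, so these counts are set against no background. The cause of the shifts was not tested.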

Other observations

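Outer 1p stood apart from the other chromosomes in N352S cells. The median ratio of N352S to wild type over its 102 tested protein-coding genes was 0.483, while the rest of chromosome 1 had 1.00 (1174 genes) and the other autosomes and X ranged from 0.936 (chromosome 15) to 1.00 (chromosome 2). In the knockdown the median ratio of outer 1p was 0.950. These values include the members.

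Some genes of the region that are no members, named after their values were seen, lay outside the common range. MXRA8 had the lowest ratio of N352S to wild type, 0.147, and C1QTNF12 the highest, 1.44. GABRD, a subunit of GABA receptors, had 1.03, SAMD11 0.906 and ISG15, a ubiquitin-like protein induced by interferon, 0.729.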
